A study of Homo sapiens with 11 samples.

Results

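The 6 genes described here, HSPA5, HSP90B1, HYOU1, SDF2L1, MANF and CRELD2, encode chaperones and chaperone partners of the endoplasmic reticulum (ER). They were taken by name from the 38021 genes of the table, and all 6 were present. RNA sequencing was done on wild-type HEK293T, a cell line established from human embryonic kidney, after 6 h of treatment in culture. The 11 conditions were vehicle (0.1% DMSO), Tg at 500 nM, AA147 at 10 µM, and AA132 at 0.1, 0.3, 1, 3, 6, 10, 15 or 30 µM. Tg, spelled "Thapsigargain" in the labels, is the drug thapsigargin, which empties the ER of calcium by blocking its pump. Both AA147 and AA132 are known by code name, and the series title concerns arm-selective activation by pharmacological regulators of ER proteostasis. Each of the 11 samples in the labels has 3 numbered columns in the table, which makes 33. Whether those columns are cultures, libraries or repeated runs is not labelled, so p-values measure only the spread between these columns, which may be technical. They are called libraries below, and n = 3 for each condition.

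The ER lumen folds secreted and membrane proteins with a set of chaperones whose genes are raised when unfolded proteins accumulate, in the unfolded protein response. One arm of that response is ATF6, a membrane protein that moves to the Golgi and is cut there by the proteases MBTPS1 and MBTPS2, which frees a transcription factor. That factor acts with NF-Y on ER stress response elements in chaperone promoters, and the XBP1s and PERK arms act beside it.

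HSPA5 encodes BiP, the HSP70-type chaperone of the ER lumen, which also holds the stress sensors inactive. The gene lies on the minus strand at chr9:125234853-125241382 (GENCODE v44 on GRCh38). HSP90B1 encodes GRP94, the HSP90-type chaperone of the ER (chr12:103930107-103953931, plus strand). HYOU1 encodes GRP170, a large HSP70-related protein that exchanges nucleotide on BiP (chr11:119044188-119057227, minus strand). SDF2L1 encodes a soluble partner of the ER co-chaperone DNAJB11 (chr22:21642302-21644299, plus strand). MANF encodes a small ER protein that binds BiP and can be secreted (chr3:51385291-51389397, plus strand). CRELD2 encodes an ER protein with EGF-like domains, known as an ER stress target (chr22:49918167-49927540, plus strand). The counts cover whole genes.

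The promoters of the 6 genes are shown because the genes moved together. ER stress elements are known from chaperone promoters, so matches in genes picked as ER chaperones were likely beforehand and are described only. The sequences are from RefSeq on GRCh38.p14, 5′ to 3′ on the strand of the gene, from position -200 to -1, where the RefSeq start site is position 0. Their coordinates are chr9:125241344-125241543 for HSPA5, chr12:103930210-103930409 for HSP90B1, chr11:119057206-119057405 for HYOU1, chr22:21642102-21642301 for SDF2L1, chr3:51385091-51385290 for MANF and chr22:49918434-49918633 for CRELD2. Capitals mark the fixed letters of an ERSE or ERSE-II, in HYOU1 also an overlapping UPRE core, and in MANF the CCACG box.
HSPA5: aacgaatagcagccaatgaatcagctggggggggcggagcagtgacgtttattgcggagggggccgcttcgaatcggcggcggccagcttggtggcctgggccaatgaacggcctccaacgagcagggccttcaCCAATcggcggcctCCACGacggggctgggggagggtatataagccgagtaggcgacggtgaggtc
HSP90B1: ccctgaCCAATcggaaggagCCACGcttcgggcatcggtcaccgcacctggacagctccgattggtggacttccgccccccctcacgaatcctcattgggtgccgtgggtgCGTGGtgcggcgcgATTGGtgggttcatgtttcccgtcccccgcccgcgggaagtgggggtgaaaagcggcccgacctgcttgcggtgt
HYOU1: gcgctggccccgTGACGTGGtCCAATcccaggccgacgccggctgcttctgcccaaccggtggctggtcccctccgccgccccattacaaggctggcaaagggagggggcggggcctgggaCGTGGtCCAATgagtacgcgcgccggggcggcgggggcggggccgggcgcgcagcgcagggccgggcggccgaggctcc
SDF2L1: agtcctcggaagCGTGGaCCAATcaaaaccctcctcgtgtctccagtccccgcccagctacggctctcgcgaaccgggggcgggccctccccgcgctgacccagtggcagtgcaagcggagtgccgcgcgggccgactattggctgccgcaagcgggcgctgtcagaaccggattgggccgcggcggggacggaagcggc
MANF: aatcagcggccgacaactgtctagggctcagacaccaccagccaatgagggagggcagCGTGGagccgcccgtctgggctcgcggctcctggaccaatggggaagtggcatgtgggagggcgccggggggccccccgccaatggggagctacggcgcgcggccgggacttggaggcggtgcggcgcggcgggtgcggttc
CRELD2: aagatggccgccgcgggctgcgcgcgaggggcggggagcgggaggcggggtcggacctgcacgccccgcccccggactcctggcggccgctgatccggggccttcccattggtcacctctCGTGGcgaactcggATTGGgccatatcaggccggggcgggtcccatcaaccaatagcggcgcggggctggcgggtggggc

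The motifs were searched on both strands of windows from 250 bases before to 50 bases after the start. The ERSE was CCAAT and CCACG with 9 free bases between them, the ERSE-II was ATTGG and CCACG with 1 free base between them, the CCACG box was CCACG alone, and the UPRE core was TGACGTGG. Every ERSE and ERSE-II contains the CCACG box. An exact ERSE was found in HSPA5 at -66 to -48 on the plus strand, in HSP90B1 at -194 to -176 on the plus strand and at -89 to -71 on the minus strand, and in CRELD2 at -80 to -62 on the minus strand. An exact ERSE-II was found on the minus strand in HYOU1 at -185 to -175 and at -79 to -69, and in SDF2L1 at -188 to -178. The first HYOU1 match overlaps a UPRE core at -188 to -181. MANF held neither element and 1 CCACG box, at -142 to -138 on the minus strand. No match says only that these letters are not in this window, and a match describes letters, not a working site.

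Of 35116 RefSeq promoter windows, 27 (0.0769%) held an exact ERSE and 19 (0.0541%) an exact ERSE-II. A UPRE core was in 256 windows (0.729%) and a CCACG box in 13375 (38.1%). An ERSE or ERSE-II was thus present in 5 of the 6 chaperone genes, in 44 of all 27305 genes and in 46 windows (0.131% of windows). The 11 paralogs of the 6 genes, listed further on, had 16 windows, and none of the 11 held an ERSE or ERSE-II, while 7 of them held a CCACG box. Most of the paralogs were picked as not known to be ER stress targets, so this contrast too was likely beforehand.

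**Figure D1:**
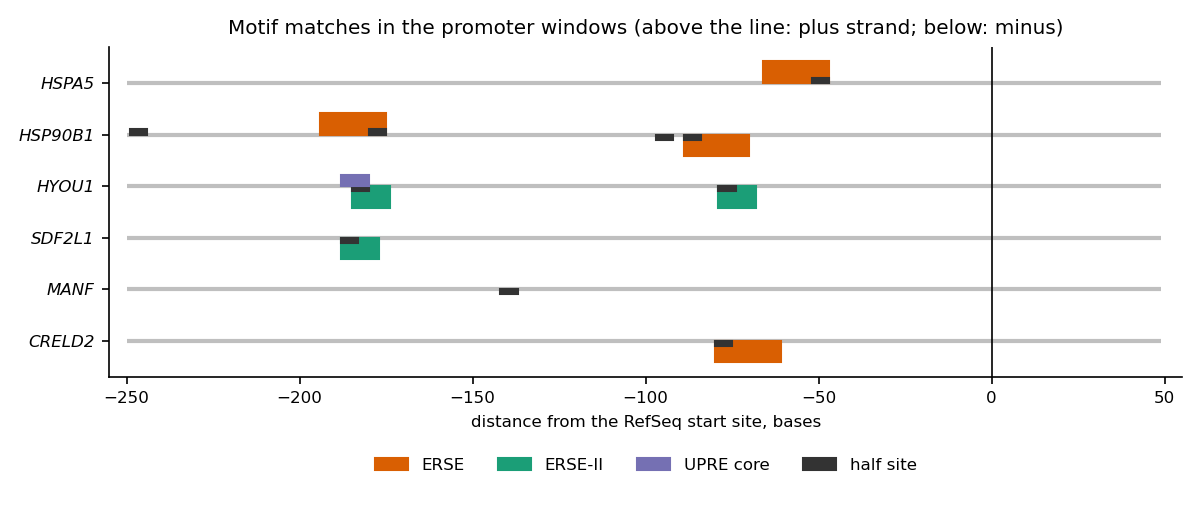
Motif matches in the promoter windows of the 6 genes, with distance from the RefSeq start site in bases on the x axis. Boxes above a line are on the plus strand of the gene and boxes below it on the minus strand, and 5 of the 6 windows hold an ERSE or ERSE-II, while MANF holds only a CCACG box.

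Library totals ran from 32.3 to 37.96 M counts, with the second lowest at 36.4 M, so each of the 6 genes had at least 1519 counts in every library. All 5 HEK293T markers looked for (PAX2, LHX1, NEFM, VIM and KRT18) were detected in all 33 libraries. PAX2 was low, at 0.41 to 1.53 CPM (counts scaled to library size), and VIM was lowest in the Tg libraries, at 702 to 739 CPM. Markers of leukocytes, liver, red cells, beta cells, endothelium and fibroblasts summed to at most 0.315 CPM in any library. Of these, INS was at 0 in all 33 libraries.

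Several libraries stood apart from the others of their conditions. The library labelled AA132 1 µM library 1 had 1660 CPM of HSPA5, against 1028 and 1093 in libraries 2 and 3 of that dose. The library labelled AA132 3 µM library 3 had 1042 CPM, against 1921 and 1969 in libraries 1 and 2. HMOX1, an oxidative stress gene, split the same way, at 39.8 CPM in 1 µM library 1 and 14.2 CPM in 3 µM library 3, beside 11.5 and 12.1 CPM in the other 1 µM libraries and 49.3 and 43.9 CPM in the other 3 µM libraries. The HSPA5 and HMOX1 values of both libraries therefore went against their dose labels, and no label was changed.

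Vehicle library 1 differed from the mean of the other 2 vehicle libraries by a root mean square of 0.41 log2 units over genes with a mean of at least 5 CPM. The same measure was 0.26 in AA132 10 µM library 1 and 0.23 in AA147 library 1. It was 0.27 and 0.21 in vehicle libraries 2 and 3, where the mean of the other 2 includes library 1, and ran from 0.12 to 0.21 in the remaining 28 libraries. Those 28 include AA132 1 µM library 1 (0.17) and 3 µM library 3 (0.15). In vehicle library 1, SDF2L1 had 2417 counts against 1519 and 1640, and CRELD2 had 3176 against 2071 and 2173. In AA132 10 µM library 1, HSPA5 was at 1854 CPM against 2687 and 2836, while HSP90B1 was at 2214 CPM against 2120 and 2289.

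Under Tg, all 6 genes rose, between 4.04-fold and 11.5-fold. HSPA5 rose most, and HSP90B1 least. The vehicle libraries held 1025, 973 and 881 CPM of HSPA5, and the Tg libraries 10969, 10778 and 11323 CPM. The groups lay far apart, and the log2 fold change was 3.52 (SE 0.17, adjusted p 1.97e-17 by edgeR's quasi-likelihood test, as for all adjusted p-values below). Because libraries are scaled to their totals, fewer cells of a type and less RNA per cell cannot be told apart in any of these values.

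HSP90B1, the HSP90-type partner, stood at 1280, 1267 and 1164 CPM in vehicle and at 5018, 4984 and 5004 CPM under Tg, a log2 fold change of 2.02 (SE 0.09). HYOU1 went from 476, 435 and 461 CPM to 3085, 3207 and 3248 CPM, a log2 fold change of 2.80 (SE 0.10). Tg libraries did not overlap vehicle for either gene. The 3 less abundant genes rose by log2 fold changes of 2.59 (SDF2L1, SE 0.12), 2.45 (MANF, SE 0.13) and 2.36 (CRELD2, SE 0.12). SDF2L1 had 67.0, 41.2 and 43.5 CPM in vehicle and 306, 302 and 303 CPM under Tg. MANF had 101, 78.8 and 81.5 CPM in vehicle and 457, 464 and 499 CPM under Tg. CRELD2, with 88.0, 56.2 and 57.6 CPM in vehicle and 352, 333 and 353 CPM under Tg, was again clear of overlap. For SDF2L1 and CRELD2 the first vehicle value is that of the library that stood apart. Without vehicle library 1 their log2 fold changes under Tg were 2.84 and 2.60.

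Of all 17793 genes tested, 31.2% were called under Tg and 16.2% were called higher than in vehicle, so a call in this comparison is common, and the size of the rise sets these genes apart by rank. Counted from the highest log2 fold change, HSPA5 ranked 43, HYOU1 78, SDF2L1 96, MANF 111, CRELD2 124 and HSP90B1 162 of 17793. Over the 6 genes the median log2 fold change was 2.52, and over all genes tested it was 0.00. The libraries of Tg lay wholly above those of vehicle for 6 of the 6 genes and for 20.2% of all genes.

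**Figure D2:**
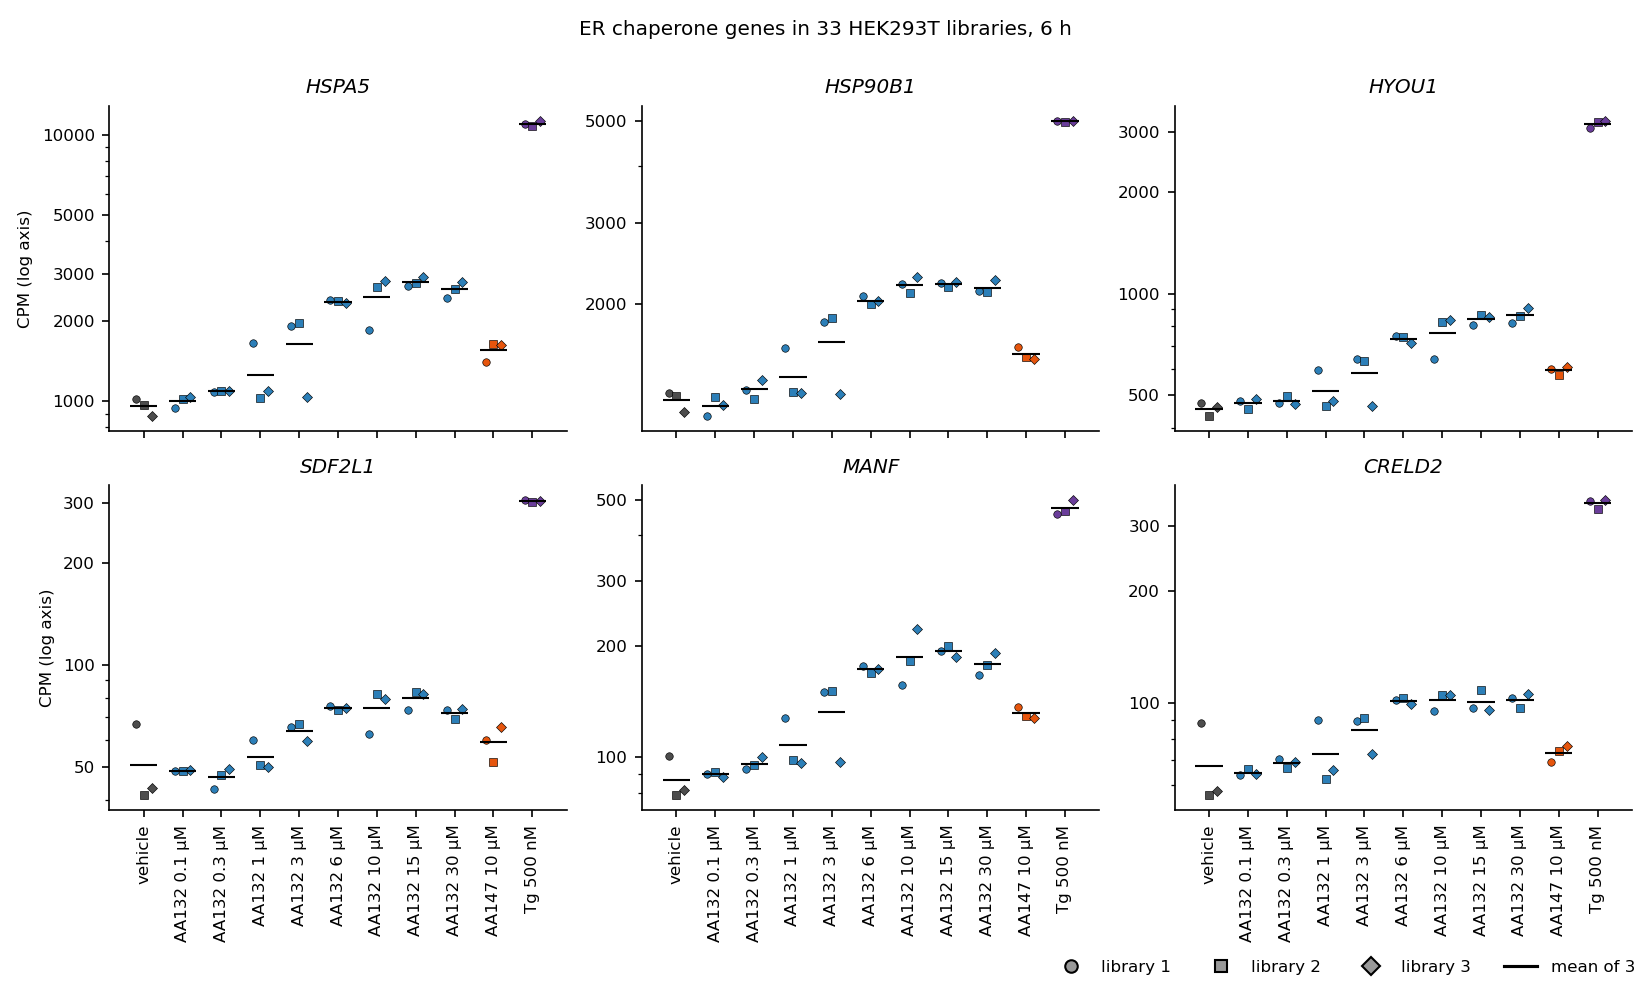
CPM (log axis) of the 6 genes in each of the 33 libraries by condition, with the 3 numbered libraries as separate symbols and a line at the mean. HSPA5 sits between 881 and 1025 CPM in vehicle and between 10778 and 11323 CPM under Tg, and 1 µM library 1 and 3 µM library 3 lie away from the other libraries of their doses.

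AA132 raised 3 of the 6 genes at 3 µM and all 6 from 6 µM upward, and 0 of the 6 was called between 6 and 30 µM. HSPA5 averaged 1004 ± 49.2 CPM (SD, n = 3) at 0.1 µM, and the means at 0.3, 1 and 3 µM were 1093 ± 7.75, 1260 ± 348 and 1644 ± 522 CPM. The large SDs at 1 and 3 µM are those of the conditions that hold the libraries labelled against their values. From 6 µM up, HSPA5 averaged 2372 ± 36.5 CPM, and the means at 10, 15 and 30 µM were 2459 ± 529, 2806 ± 109 and 2636 ± 183 CPM.

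At 0.1, 0.3 and 1 µM none of the 6 genes was called by edgeR, and none of all 17793 genes was (0.0% called). At 1 µM, 2 of the 6 genes had an unadjusted p under 0.05, and at 0.1 and 0.3 µM 0 did. Of all 17793 genes, 1057 had one at 1 µM, 796 at 0.1 µM and 981 at 0.3 µM. Without 1 µM library 1 and 3 µM library 3, 0 of the 6 had one at 1 µM, HSPA5 there went from 0.39 (SE 0.16) to 0.14 (SE 0.10) and MANF from 0.31 to 0.17, and SDF2L1 (-0.01) and CRELD2 (-0.07) had the other sign. Without vehicle library 1, 5 of the 6 had one, again with 0 called. The median log2 fold change of the 6 at 3 µM was 0.38, and 0.58 without vehicle library 1. Of all genes tested, 0.118% were called at 3 µM, against 3 of the 6: HSPA5 at 0.78 (SE 0.16), HSP90B1 at 0.42 (SE 0.09) and MANF at 0.61 (SE 0.12), each with an adjusted p of 0.0351. HYOU1 (0.34), SDF2L1 (0.34) and CRELD2 (0.32) did not pass. Leaving out 3 µM library 1, 3 µM library 2, vehicle library 2, vehicle library 3, 0.3 µM library 1, 0.3 µM library 2, Tg library 1 or Tg library 3, each on its own, left 0 calls among the 6 at this dose. Leaving out vehicle library 1 gave 5, with SDF2L1 at 0.59 and CRELD2 at 0.56. The shares of all genes called in these fits are not given here, so the counts may have moved with them.

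All 6 genes were called at every dose from 6 µM up, and all were higher. Over all genes tested the shares called at these 4 doses were 1.07%, 1.41%, 2.76% and 7.05%. Higher genes alone were 0.866%, 1.03%, 1.97% and 3.86% of those tested. For HSPA5 the log2 fold changes at 6, 10, 15 and 30 µM were 1.31, 1.36, 1.55 and 1.46, with SEs of 0.16. Its highest mean, at 15 µM, was a 2.92-fold rise (95% interval 2.34 to 3.66).

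MANF, the BiP-binding protein that can be secreted, had the next largest response, with log2 fold changes of 0.99, 1.11, 1.16 and 1.04 at 6, 10, 15 and 30 µM (SE 0.12). Its libraries stood at 177, 169 and 173 CPM at 6 µM, above all 3 of vehicle. HSP90B1 showed 0.72, 0.84, 0.84 and 0.81 over these doses (SE 0.09), and HYOU1 0.69, 0.75, 0.88 and 0.92 (SE 0.09). SDF2L1 (0.56, 0.56, 0.66 and 0.52) and CRELD2 (0.59, 0.59, 0.58 and 0.60) had the lowest values, with SEs of 0.12. These last 2 genes depend most on vehicle library 1. Without it they were at 0.82 and 0.83 at 6 µM and at 0.77 and 0.84 at 30 µM, and at 6 µM HYOU1 (0.72) and HSP90B1 (0.75) were then lower than both. Without vehicle library 3, SDF2L1 (0.46, adjusted p 0.0735) and CRELD2 (0.49, adjusted p 0.055) were not called at 6 µM, nor was SDF2L1 without vehicle library 2 (0.43, adjusted p 0.0624). At 10 µM SDF2L1 lost its call without AA132 10 µM library 2 (adjusted p 0.0502), vehicle library 2 (0.0572) or vehicle library 3 (0.0578). At 6 µM all 6 genes lay wholly above vehicle, as 8.15% of all genes did. At 15 and 30 µM all 6 did again, beside 8.87% and 10.1% of all genes. At 10 µM 5 of the 6 did (5.59% of all genes), the exception being SDF2L1 (62.6, 82.1 and 79.4 CPM against 67.0 in vehicle library 1).

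**Figure D3:**
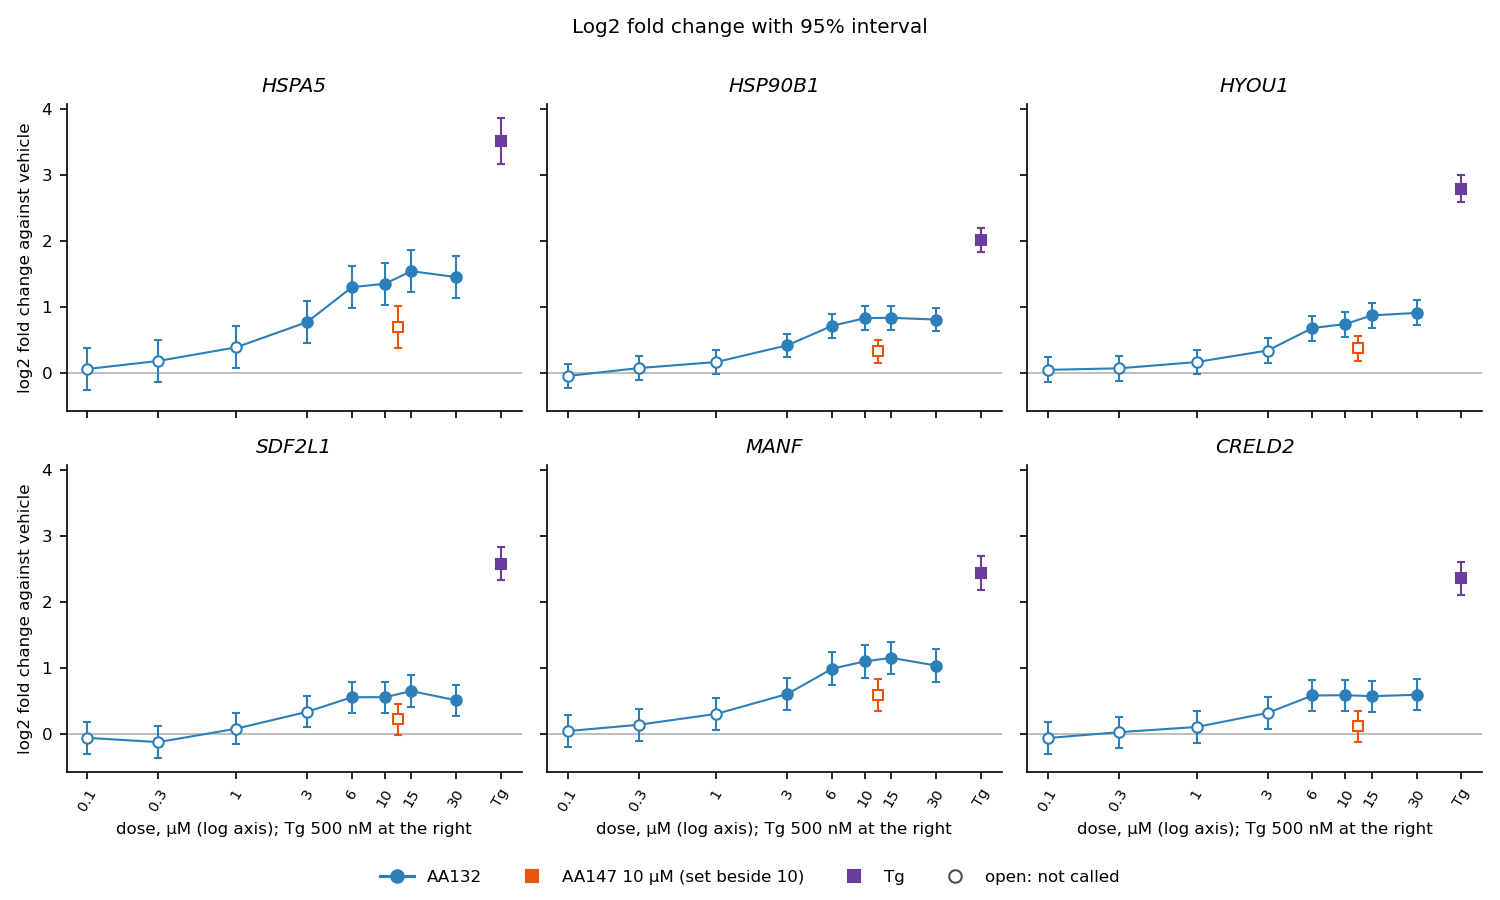
Log2 fold change against vehicle with its 95% interval for the 6 genes, by AA132 dose (log axis), with AA147 10 µM set just to the right of 10 and Tg at the far right. Open symbols were not called. HSPA5 reaches 1.31 at 6 µM and 1.46 at 30 µM, against 3.52 under Tg.

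The dose trend was also tested without vehicle, as a slope on log10 dose over the 24 AA132 libraries. All 6 slopes were positive and called, while 18.7% of 17554 genes were called and 9.83% were called with a positive slope. Per 10-fold increase in dose, HSPA5 rose by 0.68 log2 units (SE 0.06, adjusted p 1.79e-10), MANF by 0.51 (SE 0.04), HSP90B1 by 0.41 (SE 0.03) and HYOU1 by 0.40 (SE 0.03). The slopes of SDF2L1 (0.33) and CRELD2 (0.31) had SEs of 0.03. Ranked from the steepest positive slope, HSPA5 was 38, MANF 92 and HSP90B1 169 among the genes tested.

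Conditions were ordered by mean CPM for each gene. Tg was highest for all 6 genes and overlapped with no other condition. Below it came AA132 at 6, 10, 15 and 30 µM in varying order, then AA132 at 3 µM and AA147, then the lower doses and vehicle. For all 6 genes there was no overlap between the lowest of the 4 high-dose groups in this order and the group just below it. The order was set by each gene's own means. Shares of all genes with this gap, or with Tg above every other condition, were not computed, so both are descriptions. The gap holds for those 2 groups and not for every high-dose library. In AA132 10 µM library 1, HSPA5 (1854 CPM) lay below 3 µM libraries 1 and 2 (1921 and 1969 CPM). SDF2L1 in that library lay below vehicle library 1. Among the 4 high doses, each group overlapped its neighbour for HSPA5, HYOU1, SDF2L1, MANF and CRELD2, and for HSP90B1 the 6 µM libraries alone (2081, 2002 and 2029 CPM) lay below the next group. Among the low groups, HSPA5 and MANF at 0.3 µM lay above 0.1 µM, the next lower group, without overlap, and other neighbours overlapped for all 6 genes. CRELD2 at 0.3 µM also lay wholly above 0.1 µM, with vehicle between them in the order, so 3 of the 6 did, beside 5.24% of all genes.

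No member of the 6 was called between any 2 neighbouring doses, where the called share of all genes was at most 0.00562%. From 3 to 6 µM, the 6 differences were positive, between 0.22 (SDF2L1) and 0.53 (HSPA5, adjusted p 0.752). Of the 6, 5 had an unadjusted p under 0.05, as did 710 of all 17793 genes. All 6 genes lay wholly above the 3 µM libraries at 6 µM, as did 7.27% of all genes. Between 6 and 30 µM, a wider span of dose, 3.59% of all genes were called and 0 of the 6. The difference was 0.15 for HSPA5 (95% interval -0.16 to 0.47), 0.23 for HYOU1 (0.04 to 0.42) and -0.05 for SDF2L1 (-0.28 to 0.19). It was 0.09 for HSP90B1 (-0.08 to 0.27), 0.05 for MANF (-0.20 to 0.29) and 0.01 for CRELD2 (-0.22 to 0.24). At 6 µM, each gene already had between 74.9% (HYOU1) and 109% (SDF2L1) of its log2 fold change at 30 µM, and at 3 µM between 37.7% (HYOU1) and 66.1% (SDF2L1).

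Libraries that stand apart bear most on the 1 and 3 µM doses. AA132 1 µM library 1 and 3 µM library 3 were picked out by their values of HSPA5, 1 of the 6, and of HMOX1. Leaving them out narrows the spread of HSPA5 by choice. Calls in fits without them, here and further on, are therefore descriptions and not a test of the 6 genes. Without 1 µM library 1 and 3 µM library 3, 4 of the 6 genes were called between 1 and 3 µM, with 0.116% of 18087 genes called. HSPA5 then differed by 0.88 (SE 0.11, adjusted p 5.46e-05) and HSP90B1 by 0.53 (SE 0.06). The SE of HSPA5 at 6 µM against vehicle fell from 0.16 to 0.09 in the same fit, since all conditions share an estimate of spread. Without these 2 libraries, AA132 10 µM library 1, AA147 library 1 and vehicle library 1 together, all 6 genes were called at 3 µM against vehicle (1.93% of 18004 genes) and between 1 and 3 µM (0.300%). In that fit 1 of the 6 was called between 3 and 6 µM, HSPA5 at 0.29 (adjusted p 0.00793). Between 6 and 30 µM 2 were called, HYOU1 at 0.23 (adjusted p 0.000426) and HSPA5 at 0.15 (adjusted p 0.0237), with 11.5% of all genes called.

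With AA147 at 10 µM, all 6 genes had positive log2 fold changes against vehicle, but 0 of the 6 was called by edgeR, with 0.0225% of all genes called. HSPA5 stood at 1411, 1640 and 1634 CPM, all above vehicle, with a log2 fold change of 0.70 (SE 0.16, adjusted p 0.114). MANF, at 137, 129 and 128 CPM, was closest to the threshold at 0.60 (SE 0.12, adjusted p 0.0825). HSP90B1 was at 0.33 (SE 0.09, adjusted p 0.263) and HYOU1 at 0.38 (SE 0.09, adjusted p 0.192). These 4 genes lay wholly above vehicle, as 3.99% of all genes did. Each of the 4 had an unadjusted p under 0.05, as did 1211 of all 17793 genes. SDF2L1 (0.22, adjusted p 0.753) and CRELD2 (0.12, adjusted p 0.875) overlapped with vehicle library 1. Without that library they were at 0.48 (SDF2L1, adjusted p 0.0294, a call) and 0.36 (CRELD2, adjusted p 0.14).

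The AA147 result depended on the libraries in the fit. Counts below that have no share of all genes beside them may have moved with the number of calls over all genes. DESeq2 called 3 of the 6. Leaving out 1 library at a time gave 0 to 4 calls, with 4 when 3 µM library 3 was left out, 2 without 1 µM library 1 or without vehicle library 1, and 1 without AA132 10 µM library 1 or library 3. Without both 1 µM library 1 and 3 µM library 3, 4 were called, HSPA5 (adjusted p 7.46e-05), MANF (0.000383), HSP90B1 (0.000646) and HYOU1 (0.00567), beside 0.0995% of all genes. Without all 5 libraries that stand apart, 6 of the 6 were called, beside 0.494% of all genes, and the log2 fold changes ran from 0.33 (HSP90B1) to 0.82 (HSPA5).

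The pair of compounds shares 1 dose, 10 µM, so 1 pair was compared. All 6 genes were higher with AA132 than with AA147. HSP90B1 was called, at 2214, 2120 and 2289 CPM with AA132 and 1613, 1533 and 1521 CPM with AA147. Its difference was 0.50 log2 units (95% interval 0.33 to 0.68, adjusted p 0.0167), beside 0.0674% of all genes called. The other 5 differences were 0.65 for HSPA5 (0.34 to 0.97, adjusted p 0.106), 0.51 for MANF (0.27 to 0.75, adjusted p 0.103) and 0.47 for CRELD2 (0.24 to 0.71, adjusted p 0.12). They were 0.37 for HYOU1 (0.18 to 0.56, adjusted p 0.143) and 0.34 for SDF2L1 (0.10 to 0.57, adjusted p 0.371). None of the 6 intervals reached 0, each taken alone. All 6 unadjusted p-values were under 0.05, as were those of 1425 of all 17793 genes. AA132 libraries lay wholly above those of AA147 for all but SDF2L1, as for 5.47% of all genes.

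Here too the calls moved with the libraries, with the same limit on counts that have no share of all genes beside them. Leaving out AA132 10 µM library 2 or 3, or AA147 library 2 or 3, gave 0 calls. There were 3 without 1 µM library 1 and 4 without 3 µM library 3, without AA132 10 µM library 1 or without vehicle library 1. Without AA132 10 µM library 1 and AA147 library 1, 2 were called, HSP90B1 at 0.53 (adjusted p 0.0412) and HYOU1 at 0.49 (adjusted p 0.0488). Without all 5 libraries that stand apart all 6 were called, beside 1.23% of all genes, with differences from 0.46 (SDF2L1) to 0.75 (HSPA5).

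**Figure D4:**
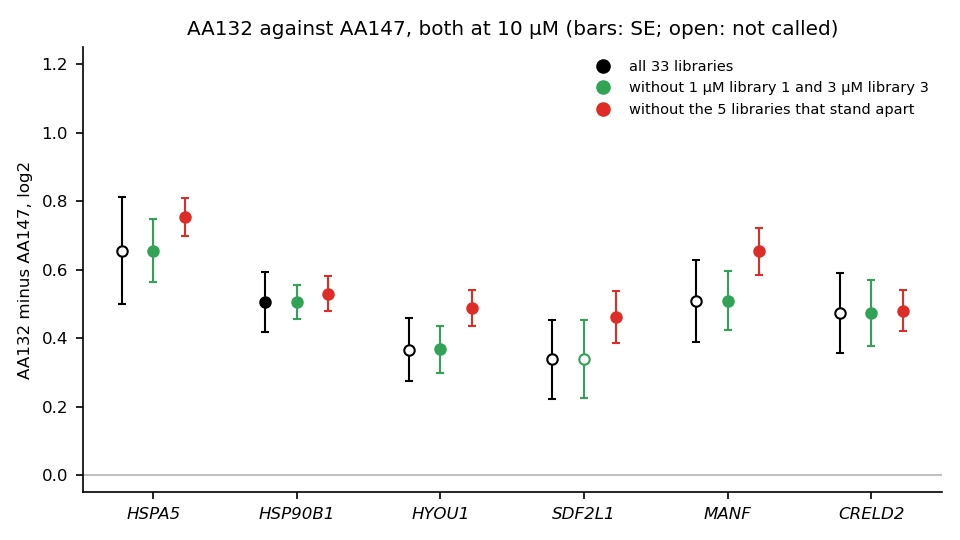
Difference between AA132 and AA147 at 10 µM in log2 units for the 6 genes, with SE bars, in the fit on all 33 libraries, without 2 libraries, and without the 5 that stand apart. Filled symbols were called. HSP90B1, at 0.50 in the fit on all libraries, is filled in all 3 fits, and every difference is above 0.

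The balance among the 6 genes shifted between conditions. Summed, they made up 0.285% of all counts in vehicle, 0.399% with AA147, 0.621% with AA132 at 15 µM and 1.98% under Tg. In vehicle HSP90B1 supplied 43.3% of the CPM of the 6 and HSPA5 33.6%. With AA147 the shares were 39.2% and 39.2%, and with AA132 at 15 µM they were 35.5% and 45.0%. Under Tg HSPA5 supplied 54.2% and HSP90B1 24.6%. HYOU1 varied less, between 13.2% and 16.5% over all 11 conditions.

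Measured library by library, the log2 ratio of HSP90B1 to HSPA5 was 0.32, 0.38 and 0.40 in vehicle and -1.13, -1.11 and -1.18 under Tg. At 6 µM AA132 it was -0.21, -0.25 and -0.20. All 3 libraries at 6 µM thus lay between those of vehicle and Tg. In AA147 library 1 the ratio was 0.19, against -0.10 and -0.10 in libraries 2 and 3, and in AA132 10 µM library 1 it was 0.26, against -0.34 and -0.31. Those 2 libraries are among those that stand apart. At 1 µM library 1 the ratio was -0.05, beside 0.33 and 0.23, and at 3 µM library 3 it was 0.29, beside -0.07 and -0.08.

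Levels can be compared between genes only per transcript length. In CPM per kilobase of the GENCODE MANE transcript, HSP90B1 (445 ± 22.9) was the highest in vehicle, followed by HSPA5 (245 ± 18.5), HYOU1 (99.4 ± 4.53), MANF (95.6 ± 13.0), SDF2L1 (61.3 ± 17.3) and CRELD2 (47.1 ± 12.6; all SD, n = 3). HYOU1 and MANF differed by less than their SDs. Under Tg the level of HSPA5 per kilobase (2811 ± 70.4) was above that of HSP90B1 (1798 ± 6.09), and HYOU1 (692 ± 18.5) was above MANF (521 ± 24.7). Transcripts of HSPA5 and HSP90B1 also have processed pseudogene copies in the genome, and how the counting treated reads shared with them is not given in the sources used here.

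Each treatment was compared with the same vehicle libraries, so the values are set side by side without a test between them. As a percent of its own log2 fold change under Tg, the log2 fold change with AA132 at 30 µM was 42.6% for MANF, 41.4% for HSPA5 and 40.4% for HSP90B1. For the other 3 genes it was 32.7% (HYOU1), 25.4% (CRELD2) and 19.96% (SDF2L1). With AA147 the figures were 24.4% (MANF), 19.9% (HSPA5), 16.4% (HSP90B1), 13.6% (HYOU1), 8.7% (SDF2L1) and 5.1% (CRELD2). Vehicle library 1 moves SDF2L1 and CRELD2 most. Without it the AA147 figures were 17.0% (SDF2L1) and 14.0% (CRELD2), beside 14.6% for HYOU1, and at 30 µM AA132 they were 27.2% and 32.4%, beside 33.5%. The order of the genes with AA147 therefore depended on that library.

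The paralogs of the 6 genes, most of which work in other compartments, varied in direction. Under Tg, 3 of these 11 paralogs rose, 6 fell and 2 did not pass. Of all genes, 31.2% were called under Tg and 16.2% were called higher. HSPA8, the constitutive HSP70 of the cytosol, fell by 1.55 log2 units (SE 0.07) while HSPA5 rose. HSPA9, the mitochondrial HSP70, rose by 0.58 (SE 0.05), and HSPA13, a microsomal HSP70-type protein that is also on the XBP1s list, rose by 1.87 (SE 0.15). The cytosolic HSP90 genes HSP90AA1 and HSP90AB1 fell by 0.71 (SE 0.08) and 0.57 (SE 0.07), while mitochondrial TRAP1 did not pass (-0.13, adjusted p 0.132).

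The cytosolic relatives of HYOU1, HSPA4 and HSPH1, fell by 0.62 (SE 0.06) and 0.60 (SE 0.06) under Tg. SDF2, the paralog of SDF2L1, fell by 0.45 (SE 0.08). CRELD1, the paralog of CRELD2, rose by 1.89 (SE 0.13). CDNF, related to MANF, was at 0.5 CPM in vehicle and did not pass (-0.14, SE 0.48). With AA132 at 10 µM, 3 of the 11 rose: CRELD1 at 0.74 (SE 0.13), HSP90AA1 at 0.34 (SE 0.08) and HSPH1 at 0.23 (SE 0.06). At that dose 1.03% of all genes were called higher. HSPA8 (0.22, adjusted p 0.0918) and HSPA13 (0.40, adjusted p 0.181) did not pass. Without vehicle library 3, 1 of the 11 passed with AA132 at 10 µM. With AA147, 0 of 11 passed in edgeR, with 2 at an unadjusted p under 0.05, beside 1211 of all 17793 genes. HSP90AA1, HSP90AB1 and HSPA8 have pseudogene copies as well.

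**Figure D5:**
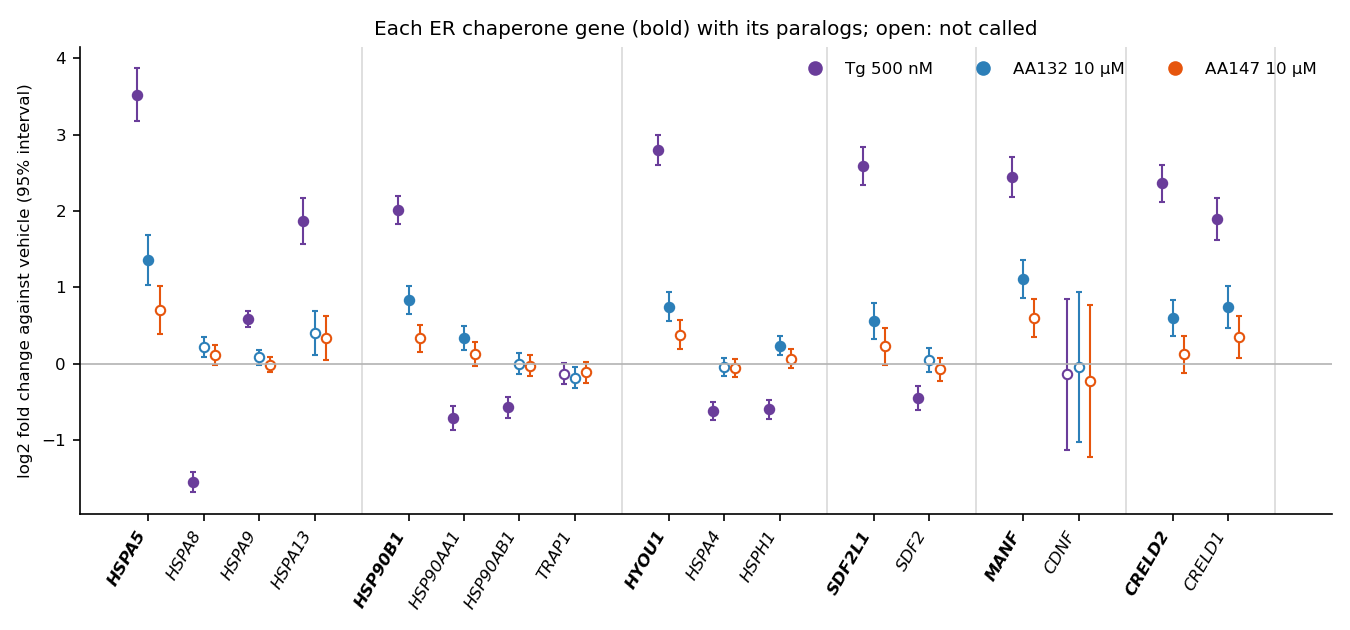
Log2 fold change against vehicle with its 95% interval for each of the 6 ER chaperone genes (bold) and its paralogs, under Tg, AA132 10 µM and AA147 10 µM. Open symbols were not called. HSPA5 is at 3.52 and HSPA8 at -1.55 under Tg, and CRELD1 is at 1.89 beside CRELD2 at 2.36.

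Genes for proteins that work with BiP rose under Tg. All 8 listed BiP partners were called higher, with a median log2 fold change of 1.43, beside 0.00 for all genes tested. Of all genes, 16.2% were called higher. DNAJB9, a co-chaperone that is also an XBP1s target, rose by 2.64, and DNAJC3, a co-chaperone that restrains PERK, by 2.08. With AA132 at 10 µM, 3 of the 8 were called, all higher, beside 1.03% of all genes called higher. DNAJB9 (0.70) and DNAJC3 (0.69) were among the 3. With AA147 0 of 8 were called in edgeR, where 3 had an unadjusted p under 0.05, beside 1211 of all 17793 genes. The median of the 8 at 10 µM AA132 was 0.38. Of these 8, 6 were called higher with AA132 at 10 µM without AA132 10 µM library 1, and 5 without vehicle library 1. Of the canopy proteins CNPY2, CNPY3 and CNPY4, known partners of GRP94, 1 was called under Tg, beside 31.2% of all genes. It was CNPY4, which fell by 0.78. With AA132 at 10 µM 0 of the 3 were called in edgeR, with 1 at an unadjusted p under 0.05, beside 2292 of all 17793 genes. Once vehicle library 1 was dropped, 1 of the 3 was called higher and 1 lower under Tg, and 1 higher with AA132 at 10 µM.

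Other genes known as ATF6-type targets were called higher in 11 of 11 cases under Tg (median log2 fold change 2.08) and in 8 of 11 with AA132 at 10 µM (median 0.63). The shares of all genes called higher were 16.2% under Tg and 1.03% with AA132 at 10 µM. Under AA147 0 of 11 were called in edgeR (median 0.32), although 10 had an unadjusted p under 0.05, beside 1211 of all 17793 genes. Leaving out single libraries, 4 of these 11 were called for AA147 when AA132 3 µM library 3 was dropped, 2 when it was AA132 1 µM library 1, and 1 each for the first library of AA132 10 µM and of vehicle. HERPUD1, of ER-associated degradation, rose by 4.12 under Tg and by 0.82 with AA132 at 10 µM. DERL3, of the same pathway, rose by 2.93 under Tg, and PDIA4, a disulfide isomerase, rose by 0.95 with AA132 at 10 µM. Among 7 XBP1s-type targets, 7 were called higher under Tg (median 1.51) and 1 with AA132 at 10 µM (DNAJB9; median 0.24). At that dose 2 of the 7 were called without AA132 10 µM library 1 or without vehicle library 1. DNAJB9 and SEC24D, a coat protein of ER export, led under Tg, with SEC24D at 2.72.

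All 8 listed PERK-arm genes were called higher under Tg (median 2.12) and 6 with AA132 at 10 µM (median 0.43). Of all genes, 16.2% were called higher under Tg and 1.03% with AA132 at 10 µM. TRIB3 rose by 3.89 and DDIT3, which encodes CHOP, by 3.62 under Tg, and DDIT3 by 1.35 and CHAC1 by 0.72 with AA132 at 10 µM. Between 6 and 30 µM AA132, 5 of the 8 PERK-arm genes were called higher, with a median difference of 0.40, and so were 2 of the 7 XBP1s-type targets, SSR1 at 0.29 and SEC24D at 0.29 (median of the 7 0.21). Leaving out 1 library at a time left 1 or 2 of these 7 called, with 1 in 13 such fits, among them those without any 1 library of 6 or 30 µM. In this comparison 3.59% of all genes were called, with 0 of the 6 chaperone genes (median 0.07) and 0 of the 11 other ATF6-type genes (median 0.06). Of those 11, 5 had an unadjusted p under 0.05, beside 3060 of all 17793 genes. Dropping vehicle library 1 gave 3 calls among them, dropping AA132 3 µM library 3 or AA132 10 µM library 1 gave 2, and dropping AA132 1 µM library 1 gave 1. Under Tg, where 31.2% of all genes were called, 4 of 6 genes for the stress sensors and the ATF6 proteases rose and 1 fell. Those that rose were led by EIF2AK3, which encodes PERK (1.52), and ERN1, which encodes IRE1 (1.22). With AA132 at 10 µM 0 of these 6 sensor and protease genes were called in edgeR, with 2 at an unadjusted p under 0.05, beside 2292 of all 17793 genes. Dropping AA132 10 µM library 1 or vehicle library 2 gave 1 call among the 6. DNAJB11, DNAJC3 and DNAJB9 each stand on 2 of the lists named here, as does HSPA13.

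Genes whose pattern was most like that of HSPA5 were found by the Pearson correlation of log2 CPM over libraries, among 11236 genes with a mean of at least 5 CPM. Over all 33 libraries, where the Tg libraries stand far from the rest, PDIA4 ranked 1 (r = 0.992), DNAJB11 4 (0.991), XBP1 5 (0.987), CALR 6 (0.985) and CDK2AP2 7 (0.984). Of the other 5 chaperone genes, MANF ranked 2, HSP90B1 3, HYOU1 9, CRELD2 21 and SDF2L1 30. Over the 30 libraries without Tg, HYOU1 ranked 1 (r = 0.985), MANF 2 and HSP90B1 5, with PDIA4 3 (0.982), CALR 4 (0.978), DNAJB11 6 (0.975), XBP1 7 (0.973) and HERPUD1 8 (0.973). CRELD2 then ranked 32 and SDF2L1 48. The libraries of a condition share its treatment, so these correlations are descriptions.

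Exact ERSE or ERSE-II matches were also present in the windows of 39 genes outside the 6, of which 30 were tested. Under Tg, 17 of the 30 were called higher and 3 lower, with a median log2 fold change of 0.62, beside 0.00 and 31.2% called over all genes. With AA132 at 10 µM 1.03% of all genes were called higher. Of the 30, 7 were called, all higher (median 0.18): CALR, CANX, ERO1B, HERPUD1, PDIA6, TRIM5 and XBP1. HERPUD1 (0.82) and XBP1 (0.79) led these, and both are on the list of other ATF6-type targets, as are CALR and PDIA6. With AA147 0 of the 30 were called in edgeR (median 0.12), and 9 had an unadjusted p under 0.05, beside 1211 of all 17793 genes. Dropping AA132 3 µM library 3 gave 3 calls, and dropping the first library of AA132 1 µM, of AA132 10 µM or of vehicle gave 1. These genes were named after their values were seen.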

How the data were processed

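The authors deposited expected counts, a read total for each gene that need not be whole, and the file headers call the values linear total reads. That they were not scaled was taken from this wording and is not stated there. The floor value of 0.009, which fills 43.5% of cells, was set to 0, 3.22% of cells hold fractions that no header explains, and values were rounded. Of 38074 entries, 98 shared 45 names and were summed, and 28 date-like names were kept apart and not used. The build is GRCh38.p7 per the submitters' processing notes. The aligner, counter, annotation and use of strand are not given in the sources used here. GENCODE v44 positions played no part in counting.

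Total RNA was sequenced on a DNBSEQ platform, per the labels. Conditions were compared with edgeR 4.0.16 (R 4.3.3, quasi-likelihood F-test, TMM factors, filterByExpr), in a single fit of the 11 conditions to 17793 genes with no term for the library number. A second fit gave a slope on log10 dose over the 24 AA132 libraries (17554 genes). A call needed an adjusted p (Benjamini-Hochberg over all genes tested in a comparison) under 0.05. CPM uses TMM-scaled library sizes, and SDs are over 3 libraries. The common dispersion was 0.00826, a coefficient of variation of 9.09%. Library totals ran from 32.3 to 37.96 M counts. With no molecular identifiers, reads need not be separate molecules. Within conditions, chi-square per degree of freedom between columns ran from 4.67 to 64.5 (median 8.01). The fit was tested on simulated data. These held independent counts with no library standing apart, so they do not bear on the calls that moved with such libraries.

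The 6 genes, the lists and the alternatives were chosen with earlier results of these data known. Named genes are the 6, their 11 paralogs, from each other list the 2 called genes with the largest log2 fold change under Tg and under AA132 at 10 µM, and the 5 most like HSPA5 outside the 6, over all libraries and without Tg (0.1 CPM added before log2). Alternatives were DESeq2 1.42.0, edgeR with RLE factors in place of TMM, no filter, only the conditions compared, a replicate block, each library left out, and dose subsets. Protein sequences were not used here.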

Additional observations from a re-analysis of the deposited data

How the results depend on the processing

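For the 6 genes, 54 log2 values were recomputed under the alternatives, which gave 2166 values. They came from Tg, AA147 and AA132 at 3 to 30 µM against vehicle, AA132 against AA147, and the slope. All 2166 kept their direction, 2049 also kept their side of the threshold, 51 lost a call and 66 gained one. Many alternatives dropped a library outside the comparison, which bears on the spread more than on the log2 value. AA132 at 0.1, 0.3 and 1 µM and the steps between doses were not included. At 1 µM, SDF2L1 (-0.01) and CRELD2 (-0.07) changed sign without 1 µM library 1 and 3 µM library 3. In this section the share of all genes called in the same fit is not set beside the counts, which may have moved with it. The number of the 6 genes called stayed within 1.5 times its reported value under all alternatives run for Tg, for AA132 at 6, 15 and 30 µM against vehicle, and for the slope. At 6, 15 and 30 µM it fell to 4 with only the conditions compared in the fit, where SDF2L1 (adjusted p 0.498, 0.299 and 0.283) and CRELD2 (0.441, 0.357 and 0.197) lost their calls. Without the filter on low counts it was 4 for AA147, 2 for AA132 at 1 µM, 6 at 3 µM, 6 for AA132 against AA147, 1 from 1 to 3 µM, 4 from 3 to 6 µM and 1 from 6 to 30 µM. DESeq2 gave 3 for AA147 and 4 for AA132 against AA147. With only the conditions compared in the fit it was 0 at 3 µM, 3 at 10 µM, 0 for AA132 against AA147 and 1 from 6 to 30 µM.

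Leaving out 1 library at a time gave 0 to 4 for AA147, 0 to 5 for AA132 at 3 µM, 0 to 4 for AA132 against AA147 and 0 to 1 from 1 to 3 µM. The next settings were chosen after seeing the data. AA132 1 µM library 1 and 3 µM library 3 were picked out partly by HSPA5, 1 of the 6. Without AA132 1 µM library 1 and 3 µM library 3 the count was 4 for AA147, 5 for AA132 against AA147 and 4 from 1 to 3 µM. Without AA132 10 µM library 1 and AA147 library 1 it was 2 for AA132 against AA147. Without these 4 and vehicle library 1 it was 6 for AA147, 6 at 3 µM, 6 for AA132 against AA147, 6 from 1 to 3 µM, 1 from 3 to 6 µM and 2 from 6 to 30 µM. The cause of these differences was not tested.

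The following are among the counts of the other lists that moved by over 1.5 times. With AA132 at 10 µM, DESeq2 called 6 of the BiP partners, 2 XBP1s-type genes and 1 of the sensors and proteases. With only the conditions compared, 0 of the paralogs, 0 BiP partners, 1 ATF6-type, 0 XBP1s-type and 1 PERK-arm gene and 0 of the 30 genes with an ERSE or ERSE-II were called at that dose. For AA147, DESeq2 called 3 ATF6-type genes and 2 of the 30, and without the filter on low counts 4 ATF6-type genes, 4 of the 30 and 1 paralog were called. Without that filter 2 XBP1s-type genes were called with AA132 at 10 µM. From 6 to 30 µM the ATF6-type count was 3 without the filter, 2 with DESeq2, 5 with only those conditions and 1 with the replicate block. Without the 5 libraries, 7 BiP partners were called with AA132 at 10 µM, 7 ATF6-type genes with AA147, and 5 ATF6-type and 8 PERK-arm genes from 6 to 30 µM.

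Whether the library numbers pair the samples is not labelled, and the values here cannot exclude it. In most conditions library 1 had the highest TMM factor of the 3, as at AA132 10 µM (1.03, against 0.99 and 0.97). In vehicle it had the lowest (0.99, against 1.00 and 1.01). Over 165 pairs of libraries with the same number in different conditions, deviations from the condition means had a median r of 0.01 (-0.43 to 0.39). The highest of these was between AA132 10 µM library 1 and AA147 library 1. Of the 33 libraries, 12 correlated best with their own number. With the library number as a replicate block, 0 of the 6 were called for AA147, 3 at 3 µM, 6 at 6 to 30 µM and under Tg, and 1 for AA132 against AA147, as without it. Each of the 6 genes had at least 1519 counts in every library, so counting error was small beside the mean levels. It was not small beside the spread between libraries in every condition. SDF2L1 was at 50.6 ± 14.3 CPM in vehicle but at 48.7 ± 0.20 CPM at 0.1 µM AA132.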
